A study of Drosophila melanogaster with 4 samples.

Results

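The subject here is the long stretches of the Drosophila melanogaster genome in which no region enriched for histone H4 was listed. They were chosen from the combined region list of an H4 chromatin immunoprecipitation (ChIP-seq) study. A stretch was taken wherever neighbouring enriched regions of the same sequence lay at least 15000 bp apart, on chromosome arms 2L, 3L and 3R, the X chromosome and chromosome 4. The rule gave 532 long gaps. They were 3.11% of the 17120 gaps of 1 bp or more on these 5 sequences, and 14 further pairs of neighbouring regions abutted with no base between them. The choice rests on the called regions themselves, so the number, length and place of the gaps are given as a description, without a test.

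Histone H4 is a core subunit of the nucleosome, the particle around which nearly all nuclear DNA is wrapped. In such studies a region is commonly called enriched when the antibody recovers it more than genomic input DNA does. How the regions were called here is not stated. A stretch without regions is one where the combined list marked no enriched region, and not one shown to lack nucleosomes. Fly arms carry gene-dense stretches and gene-poor ones, and toward the centromere they pass into pericentric heterochromatin, which is compact and rich in repeats. Chromosome 4 is a small chromosome with heterochromatic features along most of its length. Repeated sequence is hard to read with short reads, because a read from a repeat has no single place.

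The embryos were wild-type Oregon-R (Oregon-R-modENCODE), aged 14 to 16 h and fixed in 1.8% formaldehyde. Whole embryos were used, so every tissue is averaged. There are 2 ChIP libraries (replicates 1 and 2) and 2 libraries of input DNA, and the labels assign an input to each ChIP library. Nothing in the labels tells whether separate embryo collections were used for the replicates, so differences between them may be technical. On the 5 sequences the combined list had 17139 enriched regions, replicate 1 had 11580 and replicate 2 had 9638. Positions below are those of the deposited lists, on FlyBase release 5. Gene positions and base sequence of that release were not used, so the gaps are named by place and not by gene.

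The long gaps held 12.9 Mb, which was 13.04% of the 99.2 Mb of the 5 sequences and 23.8% of all bases between regions. Most were not far above the minimum. The median length was 20.7 kb, the middle 50% ran from 17.0 to 26.1 kb, and 238 of the 532 were shorter than 20 kb. A length of at least 30 kb was reached by 88 gaps, at least 50 kb by 19 and at least 100 kb by 3. Those 88 held 30.7% of all bases in long gaps. Lengths ran without a break across the minimum: the 3 shortest gaps inside it were 15000, 15002 and 15007 bp, all on 3L, and the 3 longest outside it were 14984, 14981 and 14974 bp, on 3R, 3L and 3R.

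In the combined list chromosome 4 had the most long gaps for its length, and the longest median. It had 25 long gaps in 1.35 Mb, or 18.5 per Mb, and they took up 78.7% of the chromosome. Their median was 33.6 kb, and 15 of the 25 reached 30 kb. The X chromosome came next, with 166 long gaps, 7.40 per Mb and 18.3% of its bases. Arms 3L and 2L were close to each other, with 140 and 129 gaps, 5.70 and 5.61 per Mb, and 13.4% and 12.6% of their bases. Arm 3R was lowest for its length, with 72 gaps, 2.58 per Mb and 5.71% of its bases. The medians of the large sequences lay close together, at 20.9 kb on X, 21.4 kb on 3L, 20.3 kb on 2L and 19.6 kb on 3R. By their medians, these sequences differed little in length and more in how many long gaps they had. The share of long gaps that reached 30 kb was less alike. It was 17.5% on X, 15.7% on 3L, 13.9% on 3R and 9.30% on 2L. No test of the order was made, since the gaps were chosen from the list that gives it.

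**Figure D1:**
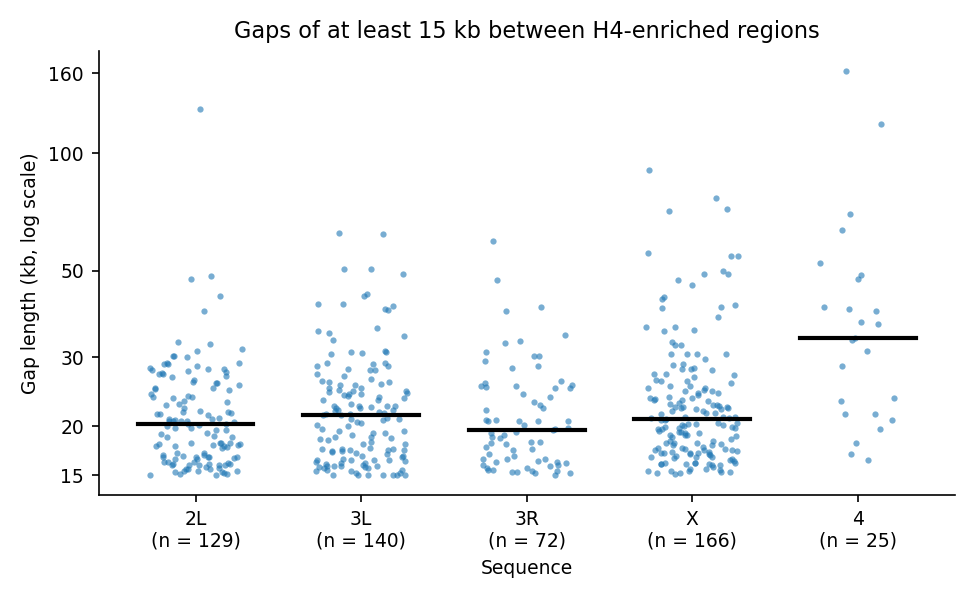
Each point is 1 gap of at least 15 kb in the combined list, placed by sequence (x axis) and by length in kb on a log scale (y axis), and the black lines are medians. The median is 33.6 kb on chromosome 4 and between 19.6 and 21.4 kb on the other 4 sequences.

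The same measure was taken in each replicate list alone. Both lists had fewer regions and more long gaps than the combined list, with 1117 in replicate 1 and 1350 in replicate 2. Fewer regions can lengthen gaps or merge them, so the number can rise or fall. Their narrowest region was also wider, at 1301 bp against 1001 bp in the combined list. Long gaps took up 33.3% and 44.6% of the 5 sequences in replicates 1 and 2. Chromosome 4 was highest in both, with 86.7% of its bases in replicate 1 and 90.5% in replicate 2. X followed with 43.3% and 57.0%, then 2L with 36.6% and 46.6%, 3L with 31.8% and 43.1%, and 3R with 21.2% and 31.9%. The order by bases, from highest to lowest, was thus the same in both replicates. By number the order differed: chromosome 4 had 18 and 19 long gaps in these lists, with medians of 44.0 and 34.0 kb. Replicate 1 had 13.6 long gaps per Mb on X, 13.3 on chromosome 4, 12.3 on 2L, 11.4 on 3L and 8.31 on 3R. Replicate 2 had 16.1 on X, 14.4 on 2L, 14.1 on chromosome 4, 13.3 on 3L and 11.2 on 3R. In the combined list 2L and 3L changed places, at 12.6% and 13.4%. The combined list is labelled as that of the set of both replicates, so the replicate lists cannot be taken as independent of it.

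**Figure D2:**
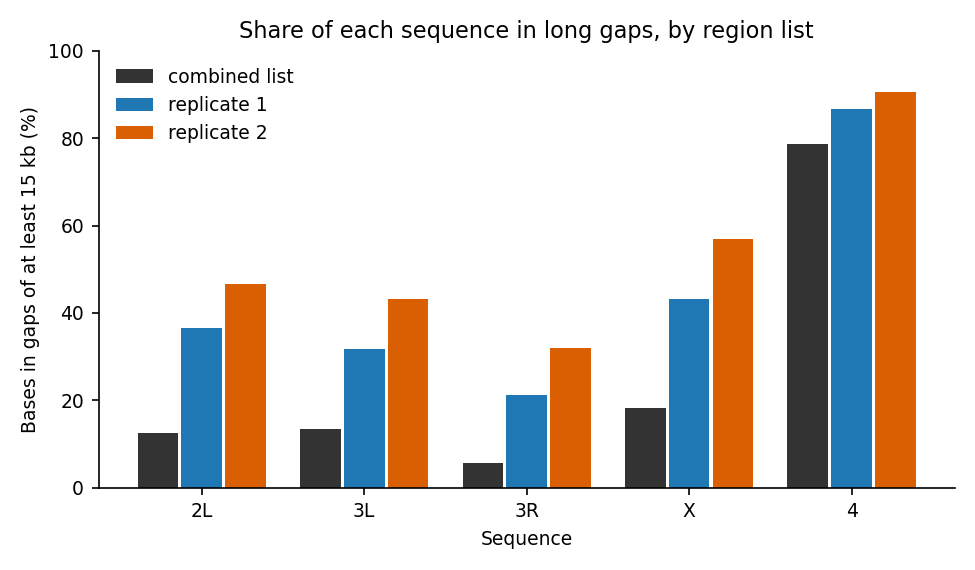
Bars give the percent of each sequence's bases in gaps of at least 15 kb, for the combined list and for each replicate list. Chromosome 4 lies between 78.7% and 90.5%, and 3R is lowest in all 3 lists, from 5.71% to 31.9%.

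Outside the long gaps the sequences had more similar shares of bases in enriched regions. Over its full length chromosome 4 had 9.87% of its bases in enriched regions of the combined list, against 38.0% on X and 54.5% on 3R. Outside the long gaps the share was 46.4% on chromosome 4, 46.5% on X, 49.1% on 2L, 52.0% on 3L and 57.8% on 3R. In the replicate lists the shares outside the same gaps were 27.03% and 23.6% on chromosome 4, for replicates 1 and 2. They were 29.9% and 21.7% on X, 32.4% and 26.5% on 2L, 36.0% and 28.3% on 3L, and 39.5% and 31.5% on 3R. The number of combined regions per Mb outside the gaps was 233 on chromosome 4, from 67 regions, above the 190 on X and the 211 on 3R. Chromosome 4 was not highest in the replicate lists. Replicate 1 had 125 per Mb on chromosome 4, 119 on X, 124 on 2L, 137 on 3L and 150 on 3R. Replicate 2 had 111 on chromosome 4, 95.9 on X, 106 on 2L, 112 on 3L and 127 on 3R. Removing stretches without regions raises these shares by construction, and most where such stretches are many. The shorter gaps of chromosome 4 were still longer than elsewhere, with a median of 2196 bp against 1735 bp on X and 1160.5 bp on 3R among gaps under the minimum.

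The 10 longest gaps were 4 on chromosome 4, 4 on X, 1 on 2L and 1 on 3L. The longest spanned chromosome 4 from 222222 to 384392 (162 kb). In both replicate lists the gap at this place was longer still, 243.3 kb in replicate 1 and 243.1 kb in replicate 2. It was bounded by narrow, low-scoring regions of 1323 and 1200 bp with scores of 0.27 and 0.27, neither of which touched a replicate region. The score is the authors' own value for each region, and its scale is not stated. The other gaps of this chromosome among the longest spanned 24267 to 142849 (119 kb), 1103986 to 1173840 (69.9 kb) and 1199774 to 1263353 (63.6 kb). The gap from 24267 followed a wide region of 11334 bp with a score of 1.07 that touched both replicate lists. Replicate 2 had a single gap of 230.8 kb over the last 2 of these and 3 more members. Replicate 1 had a gap of 142 kb at the first of that pair and of 86.3 kb at the second.

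On X the longest gap spanned 3471097 to 3561388 (90.3 kb), and the gap around it was 97.6 kb in replicate 1 and 183 kb in replicate 2. The next spanned 15896816 to 15973594 (76.8 kb), with 77.7 and 80.9 kb in the replicates, so its ends were nearly the same in all 3 lists. Another spanned 21686924 to 21759011 (72.1 kb), near the centromere side. Its counterpart was 72.1 kb in replicate 1 and 98.4 kb in replicate 2. The last spanned 169008 to 240022 (71.0 kb), near the telomere side, with 71.3 kb in replicate 1 and 186 kb in replicate 2. All 4 of these had a replicate 1 gap within 1.1 times their own length. On 3L the longest gap spanned 22973848 to 23036206 (62.4 kb), and the gap around it was 108 kb in replicate 1 and 113 kb in replicate 2. On 3R it spanned 388338 to 447864 (59.5 kb), at rank 12 of all, with 69.9 and 83.5 kb in the replicates. Both lay in the 10% of the arm nearest the centromere.

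The longest gap on 2L spanned 21413170 to 21542621 (129 kb), rank 2 of all, with its middle 93.3% of the way from the telomere side. The gap at this place was 147 kb in replicate 1 and 140 kb in replicate 2. The regions at its ends had high scores. The left region, 1328 bp wide, scored 1.02 and the right region, 1111 bp wide, scored 2.22, against a median of 0.37 for the regions beside long gaps on 2L. Neither touched a replicate region. Inside it replicate 2 had a region from 21539540 to 21540849, of 1310 bp, whose score of 3.11 was the highest of its 9638 regions on the 5 sequences. Replicate 1 had no region there. As background, the tandemly repeated histone genes of the fly, which code for H4 and its partners, lie toward the centromere side of 2L. The RefSeq gene table of Release 6 lists 111 genes of this array, 22 of them for H4, with the middle gene 95.1% of the way along the 3506 genes of the arm. That table uses another release than the region lists, so the gap was not matched to these genes. The 95.1% is a rank among genes and the 93.3% is a position in bases, so these are not comparable either.

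Along the large sequences, long gaps were more common away from the telomere side. The arms 2L and 3L and the X are numbered toward the centromere, and 3R away from it, so each was divided into 5 equal bins numbered from 1 at the telomere side to 5 at the centromere side. Over 2L, 3L, 3R and X together, bin 1 held 47 of 507 long gaps (2.40 per Mb), bin 2 held 77, bin 3 held 116, bin 4 held 138 and bin 5 held 129 (6.59 per Mb). The share of bases in enriched regions was 40.3% in replicate 1 and 32.0% in replicate 2 in bin 1, and 28.3% and 21.8% in bin 5. This share is tied to the gaps by the rule. With chromosome 4 included, bin 5 held 24.8% of the long gaps of the combined list. It held 21.2% of those of replicate 1 and 20.8% of those of replicate 2, nearer to an equal share of the 5 bins. Each arm had its own shape. On 2L bin 4 held the most, 52 of 129 gaps and 24.5% of its bases. On 3L bins 3, 4 and 5 were alike, with 41, 34 and 41 gaps and 18.1%, 18.1% and 19.8% of their bases in long gaps. On X every bin had between 14.4% and 20.8% of its bases in long gaps. On 3R bin 1 had 4 gaps (1.82% of its bases), and the other 4 bins had between 6.10% and 7.57%.

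In 10 equal bins, 2L, 3L and X shared a feature near the centromere side. Bin 10, at the centromere, was rich in long gaps, with 28 on 2L, 27 on 3L and 29 on X, taking up 33.5%, 28.7% and 32.3% of its bases. Bin 9 was poorer, with 7, 14 and 8 gaps and 7.27%, 10.97% and 8.50% of its bases. Bin 8 was rich again, at 29.8%, 21.9% and 23.4%. The share of bases in replicate regions is tied to these values by the rule. Replicate regions filled 0.0827% (replicate 1) and 0.0457% (replicate 2) of all long-gap bases, so their shares are no separate evidence of the pattern. On 2L replicate 1 had 14.1%, 34.5% and 15.6% of bins 8, 9 and 10 in enriched regions. Replicate 2 had 11.7%, 27.1% and 12.3%. On X the values were 20.4%, 33.3% and 13.6% in replicate 1, and 14.4%, 23.1% and 10.6% in replicate 2. On 3L they were 22.4%, 32.6% and 27.5% in replicate 1, and 16.8%, 27.5% and 19.4% in replicate 2. Arm 3R did not have this pattern, with 4 gaps and 4.60% of its bases in bin 10 and 12 gaps and 8.67% in bin 9. These bins were singled out after their values were seen, and no test was made.

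**Figure D3:**
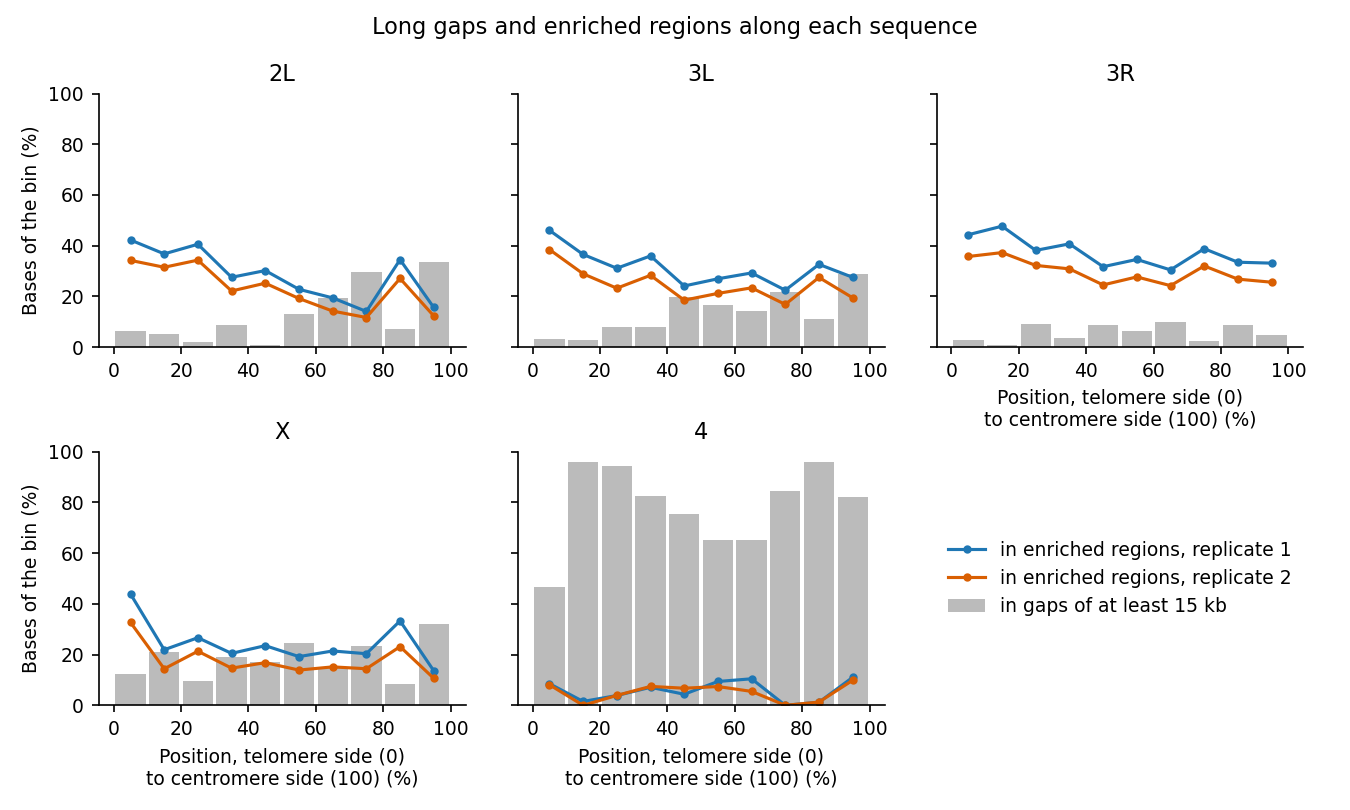
Each panel is a sequence divided into 10 equal bins, from the telomere side (0) to the centromere side (100, in percent of its length). Grey bars give the percent of bases in gaps of at least 15 kb of the combined list, and lines give the percent of bases in enriched regions of each replicate list. On 2L, 3L and X bin 9 has fewer gap bases (7.27%, 10.97% and 8.50%) than the bins on either side.

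At a scale of 1 Mb the gaps gathered in particular windows. The first Mb of chromosome 4 had 79.4% of its bases in long gaps. It was followed by 3L from 18000001 to 19000000 (47.4%, 16 gaps) and 3L from 23000001 to 24000000 (44.9%, 18 gaps). Then came X from 3000001 to 4000000 (39.5%, 13 gaps) and X from 21000001 to 22000000 (38.5%, 15 gaps). Replicate 1 covered these last 4 windows to between 12.6% and 15.6%, and replicate 2 to between 9.30% and 10.8%. Low cover in windows rich in long gaps follows in part from the rule. At the other end, 9 of the 97 windows had no base in a long gap. Of these, 8 were on 3R and 1 was on 3L, and the combined list covered them to between 56.3% and 74.5%. No window of 2L or X was free of long gaps. The longest stretch between neighbouring long gaps was on 3R from 22353708 to 27758788, 5405 kb long and reaching nearly to the telomere end of the arm. On the other large sequences the longest such stretch was 1928 kb on 3L, 1445 kb on 2L and 1312 kb on X, each near the telomere side. On chromosome 4 it was 48.1 kb.

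Many long gaps were neighbours of each other. Another long gap lay within 10 kb of 183 of the 532 (34.4%). The share was 84.0% on chromosome 4, 43.4% on 2L, 34.9% on X, 27.9% on 3L and 12.5% on 3R. The median distance to the nearest other long gap was 1.60 kb on chromosome 4, 11.5 kb on 2L, 18.8 kb on X, 24.6 kb on 3L and 40.1 kb on 3R. Where long gaps are many for the length of a sequence, less is left between them. Both measures therefore follow in part from the number of long gaps, and no test was made. In 70 cases a single enriched region was all that stood between neighbouring long gaps. These chains made 52 runs with 122 members: 42 runs of 2 gaps, 8 of 3 and 2 longer ones.

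The longest run was on chromosome 4 from 887113 to 1280974. It had 10 long gaps in 394 kb, parted by 9 regions that summed to 16.2 kb, so that 95.9% of the run lay in gaps. Of the 9 regions, 5 touched replicate 1 and 4 touched replicate 2. A second run on that chromosome spanned 24267 to 219721, with 3 gaps in 195 kb, and another 627571 to 723996, with 3 gaps in 96.4 kb. Outside chromosome 4 the longest was on 3L from 18426695 to 18567392, with 4 gaps in 141 kb, inside the window with the most gap bases of the large arms. The next was on 3L from 15340317 to 15449527, with 3 gaps in 109 kb. The 2 regions inside that last run touched neither replicate list, so both replicates left the whole run without a region.

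The regions beside long gaps had a lower median width than the rest, and a smaller share of them touched a replicate region. Over the 5 sequences together their median score was only slightly lower. On the 5 sequences 994 regions bordered a long gap. Their median width was 1664 bp, with a middle 50% from 1259 to 2396 bp, against 1924 bp (1403 to 3051 bp) for the other 16145 regions. Their median score was 0.39 (0.30 to 0.49), against 0.40 (0.32 to 0.50). A region of replicate 1 was touched by 51.0% of them and one of replicate 2 by 38.0%, against 61.7% and 49.1% of the others. In all, 437 of the 994 (44.0%) touched neither list, against 32.5% of the others. The median width and the median score were lower on each of the 5 sequences. The scores were 0.37 against 0.38 on 2L and on 3L, 0.35 against 0.39 on 3R, and 0.44 against 0.45 on X. On chromosome 4 they were 0.37 against 0.43. The share touching neither list was higher on the 4 large ones, but not on chromosome 4, with 37.1% of 35 border regions against 46.9% of the other 32. There 48.6% of border regions touched replicate 2, against 40.6%. No test was made, since border regions were chosen through the same list that holds their width and score. A wide region also has more chance to touch a replicate region. The narrowest region was 1001 bp in the combined list but 1301 bp in each replicate list. The middle 50% of border regions began at 1259 bp, so many were narrower than any replicate region.

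This difference was not a step at the minimum length. Regions whose longer neighbouring gap was under 1 kb had a median width of 2171 bp, and 25.5% touched neither replicate list. The values were 1915 bp and 33.7% for a gap of 2 to 5 kb, 1676 bp and 42.6% for 10 to 15 kb, and 1530.5 bp and 47.1% for 30 kb or more. The median score was 0.41 in the first of these groups, 0.39 in the next 2 and 0.40 in the last. The 70 regions that stood alone between a pair of long gaps had a median width of 1519.5 bp and a median score of 0.38. Replicate 1 touched 45.7% of them and replicate 2 touched 28.6%, and 51.4% touched neither.

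**Figure D4:**
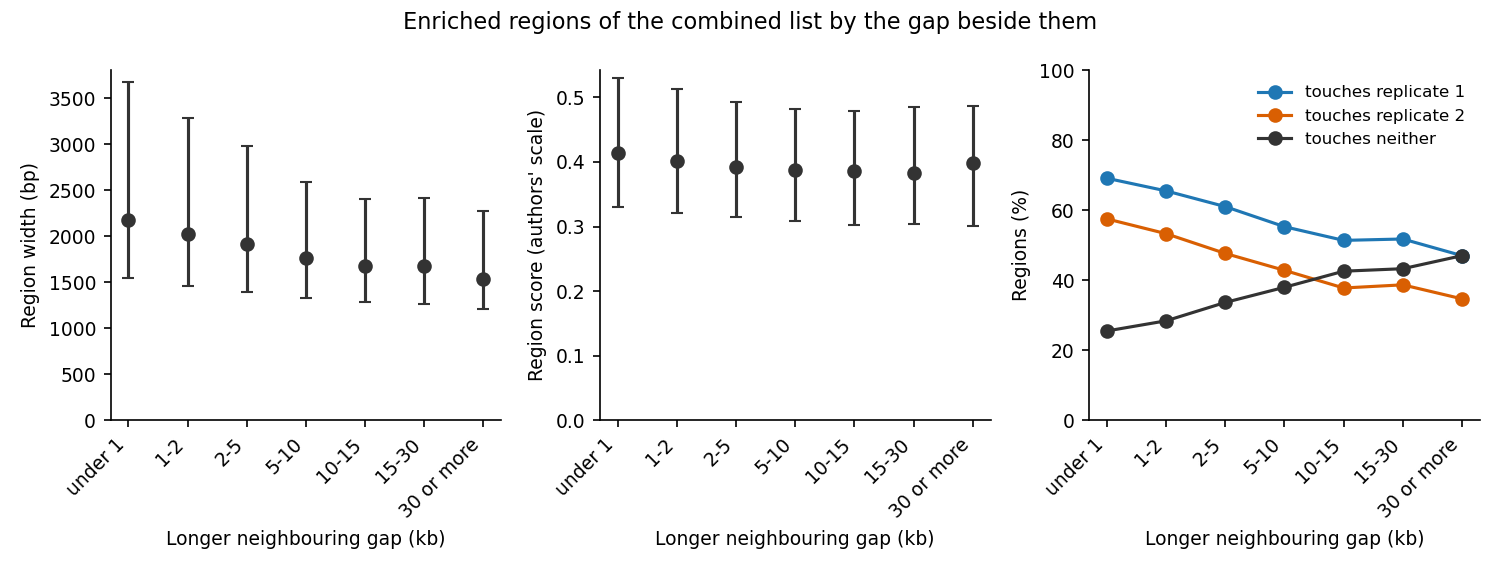
Enriched regions of the combined list on the 5 sequences are grouped by the longer of the gaps beside them, in kb (x axis). Points and bars on the left and middle are the median and the middle 50% of region width (bp) and of the authors' score, and lines on the right are the percent of regions touching each replicate list or neither. The median width is 2171 bp on the far left and 1530.5 bp on the far right, and the share touching neither list is 25.5% and 47.1%.

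Each replicate list was then read inside the gaps. Of the 532 long gaps, 385 (72.4%) held no base of a region of either replicate. Replicate 1 entered 116 and replicate 2 entered 37, and 6 were entered by both. In most of these cases a replicate region that lay across a border ran a few bases further in. That overhang had a median of 32 bases in 112 gaps for replicate 1 and of 35.5 bases in 34 gaps for replicate 2, and at most 258 bases. Together the replicate regions filled 0.0827% of the gap bases in replicate 1 and 0.0457% in replicate 2. Gaps under the minimum were entered about as often, 21.2% by replicate 1 and 7.80% by replicate 2, against 21.8% and 6.95% of the long ones. The combined list is labelled as that of the set of both replicates, so the replicate lists cannot be taken as independent of it. How it was made is not stated. Why so few replicate bases lay outside it was not tested.

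A whole replicate region lay inside 7 of the 532 gaps, 4 from replicate 1 and 3 from replicate 2, and no gap held one from both. Of the 16588 gaps under the minimum, 24 held one from replicate 1 and 12 held one from replicate 2. Those gaps had a median of 1398 bp, so many had little or no room for a whole region. The long gap with the most bases in replicate regions was on 3L from 10330448 to 10351172, where replicate 1 had a region of 1537 bp with a score of 0.55. On 3L from 20041580 to 20056579, the shortest long gap of all, replicate 2 had a region of 1451 bp (score 0.58). On 3L from 9939088 to 9961133 and on 2L from 21968196 to 22011189, replicate 1 had regions of 1421 and 1409 bp (0.44 and 0.47). On X from 17246901 to 17269755 replicate 1 had one of 1354 bp (0.70). The remaining gaps of this kind were the 129 kb gap on 2L described above and X from 2705292 to 2726186, where replicate 2 had a region of 1347 bp (0.58). All 7 regions were narrow, from 1310 to 1537 bp, in lists whose narrowest region was 1301 bp. The median was 1988 bp for all regions of replicate 1 and 1943 bp for those of replicate 2. Apart from the region scoring 3.11 on 2L, the 7 regions had scores between percentiles 20.5 and 76.3 of their own list on the 5 sequences.

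Seen from the replicate lists, most long gaps were part of longer ones. The gap around a member had a median of 1.43 times the length of the member in replicate 1, with a middle 50% from 1.04 to 2.35 times. In replicate 2 the median was 1.94 times (1.24 to 3.22). It was at least 2 times as long for 178 members in replicate 1 and for 259 in replicate 2. It was under 1.1 times as long for 168 members in replicate 1 and 94 in replicate 2, so for these the borders nearly coincided with those of the combined list or lay inside them. The median ratio was higher on X (1.56 and 2.18) and 2L (1.49 and 2.13) than on 3R (1.25 and 1.63). On chromosome 4 it was 1.5001 in replicate 1 and 1.5011 in replicate 2.

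The 532 members fell into 466 separate gaps of replicate 1 and 430 of replicate 2. In replicate 1, 57 gaps held more than 1 member, and in replicate 2, 80 did. The fullest was on 2L. Replicate 1 had no region from 16964322 to 17185346 (221 kb), a stretch with 5 members. Replicate 2 had none from 16917041 to 17185403 (268 kb), its longest gap on the 5 sequences, with 6 members. All but 1 of the 6 regions to the left of these members in the combined list touched neither replicate list, and the other touched replicate 1. Members held 99.7% of their bases in long gaps of replicate 1 and 99.9% in those of replicate 2, and they made up 39.1% and 29.2% of the bases of those gaps. Of the long gaps of the replicates, 58.4% in replicate 1 and 68.1% in replicate 2 held no member.

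**Figure D5:**
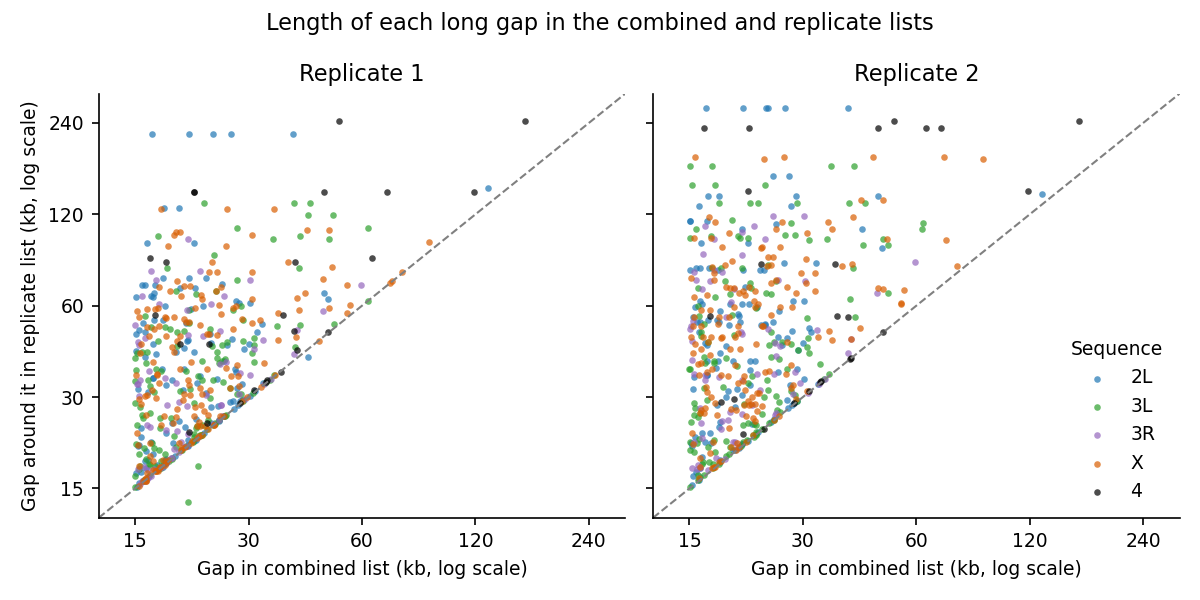
Each point is a long gap, with its length in the combined list (x axis, kb) against the length of the replicate gap that overlaps it most (y axis, kb), both on log scales and coloured by sequence. The dashed line marks equal lengths. The median ratio is 1.43 in replicate 1 and 1.94 in replicate 2.

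The combined list also names 14 regions as depleted of H4, of which 8 lie on the 5 sequences. None of the 8 fell in a long gap. They lay in gaps of 2930 to 12419 bp, and they were 1403 to 1522 bp wide. Long gaps were 3.11% of the gaps on these sequences and held 23.8% of the bases between regions. With so few depleted regions, their absence from long gaps cannot be read as a trait of those gaps. The ends of the sequences were not counted by the rule. Only the last 25.7 kb of 2L and the first 53.8 kb of 3L would have met the same minimum length. Among the sequences outside the rule, arm 2R had 57 gaps of this length over 6.48% of its bases, between the shares of 3R and 2L. The pericentric and Y sequences (2LHet, 2RHet, 3LHet, 3RHet, XHet and YHet) and the unplaced sequence U had between 24.5% and 83.4% of their bases in such gaps.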

How the data were processed

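Chromatin was immunoprecipitated with an antibody to H4 and sequenced, beside input DNA. Bowtie 0.12.7 is named in the submitters' processing notes. Coordinates follow FlyBase release 5, per the file headers. Not given in the sources used here are the caller of regions, its settings and how the combined list was made. The deposited lists give other values than read measurements: the first and last base of each region, counted from 1, and a score from the authors whose scale and log base are not stated. No reads were used, so depth is unknown and no counting interval is given. Read filters and unreadable repeats could lengthen gaps; neither was measured.

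Gaps were the bases between consecutive enriched regions. A replicate region counted as inside when all its bases were. The steps were tested on simulated lists. Python 3.11.15, NumPy 2.4.6 and pandas 2.3.3 were used.

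Members, lists and summaries were chosen with earlier results of these data known. Named are the 10 longest gaps, the longest of each sequence, the 5 with the most replicate bases, the 3 on either side of the minimum, and the 5 leading windows and runs; other places named were chosen after their values were seen. Alternatives changed the minimum length, the regions used and the list.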

Additional observations from a re-analysis of the deposited data

How the results depend on the processing

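How many long gaps were found, and how much they held, depended strongly on the list and on the minimum; the lists joined and the count of regions entering by any base were chosen after seeing the data. The 532 gaps became 1167 with a minimum of 10000 bp, 294 with 20000 bp, 1330 with the higher scoring 50% of regions, 947 with regions of at least 1500 bp and 1016 with both replicate lists joined, and counting sequence ends gave 534. Each replicate list alone gave 1117 to 1350. The share of bases was 40.6% with the higher scoring 50%, 26.9% with wider regions, 29.2% with the lists joined and 33.3% to 44.6% with a replicate alone, against 13.04%; with minimums of 10000 and 20000 bp it was 20.8% and 8.96%. In the same order of settings the median length was 24.5, 22.9, 22.5 and 23.2 to 24.8 kb, the share in the bin of 5 nearest the centromere was 21.9%, 22.0%, 21.6% and 20.8% to 21.2% (24.8% for the 532 gaps, chromosome 4 included), and the share with another gap within 10 kb was 54.4%, 51.0%, 51.3% and 55.8% to 60.7%. With minimums of 10000 and 20000 bp, the median was 14.5 and 25.5 kb, the centromere share 23.0% and 25.5%, and the nearby share 50.0% and 24.1%. An even spread would put the same share of gaps in each of the 5 bins. The centromere share of a replicate alone, 20.8% to 21.2%, lay nearer to that than the 24.8% of the combined list. The score of border regions was 0.48 with the higher scoring 50%, 0.40 with wider regions, and 0.56 to 0.57 in the replicate lists. Whether the lists share a score scale is not stated, so these values may not be comparable. Gaps holding a whole replicate region numbered 7, and 15 with a minimum of 10000 bp, 1006 with the higher scoring 50%, 248 with wider regions, and 147 when any base counted. Gaps of a replicate list alone that held a region of the other numbered 334 to 917. Where a setting leaves regions out, gaps merge or lengthen, so more bases in long gaps follow from the construction. The number of long gaps can rise or fall. On chromosome 4 it was 25 in the combined list and 18 and 19 in the replicate lists. No paired analysis was possible because no input values were used and no result comes from a test. Depth is unknown and limits the lists in a way not measured here.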

Other observations

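Scores recurred exactly in all 3 lists. On all sequences, 41.6% of the 22525 enriched regions of the combined list had a score that another region of the list also had, to every deposited digit. The share was 53.4% of 15405 in replicate 1 and 57.7% of 12952 in replicate 2. Among the 86 combined regions scoring above 2 it was 72. The score of the replicate 2 region inside the 129 kb gap on 2L, 3.11, was exactly shared with 1 more region of that list, and 3 of its regions scored higher, all on sequences outside the 5 described here.

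A few long gaps of X lay at the telomere end. The 10% of X nearest the telomere had 7 long gaps with a median of 42.8 kb, longer than the 20.9 kb of X as a whole. Replicates 1 and 2 covered that part to 43.9% and 32.7%, and the whole X to 24.4% and 17.7%. The gaps were not spread evenly over that part. The first Mb of X had 6 long gaps and was covered to 26.8% and 19.1%. The second Mb had 1 and was covered to 57.9% and 43.6%. On 3L the 10% nearest the telomere had 2 long gaps, with a median of 37.3 kb.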
